A study of Sus scrofa with 92 samples.

Results

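Heme breakdown and iron handling genes were followed in the pig liver through hemorrhagic shock and resuscitation. The genes named for this purpose were HMOX1, BLVRA, BLVRB, HPX, HAMP, TFRC, SLC40A1 and ALAS1, chosen by symbol. Of these 8 genes, 6 carried a pig Ensembl identifier among the 25322 identifiers of the deposited count table; HMOX1 and HAMP were not matched to an identifier and are not analysed here. The 6 are HPX (ENSSSCG00000014626), BLVRA (ENSSSCG00000016756), BLVRB (ENSSSCG00000021067), TFRC (ENSSSCG00000011848), SLC40A1 (ENSSSCG00000027157) and ALAS1 (ENSSSCG00000011437).

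The animals were juvenile male Yorkshire-Landrace pigs. All of them were fasted overnight, had the spleen removed, and received a blunt chest injury, a hemorrhage and a crush injury of the liver, followed by resuscitation with fluid and their own shed blood. Fasted (FS) animals, 18 in number, received nothing further, and carbohydrate prefed (CPF) animals, 5 in number, were given a bolus of sugar syrup shortly before induction. RNA-seq was run on liver biopsies taken from each animal at Baseline (B) and at 2, 8 and 20 hours of full resuscitation (FR2, FR8 and FR20). The labels record that 3 FS and 2 CPF animals died. There was no uninjured or unresuscitated group, so a change with time cannot be told apart from repeated biopsy, anesthesia or time of day.

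Red cells that break down release hemoglobin and then free heme, which damages membranes. Hemopexin carries free heme in plasma to the liver, where heme oxygenase opens the ring to biliverdin and releases iron, and biliverdin reductases turn biliverdin into bilirubin for export into bile. Iron enters cells bound to transferrin through the transferrin receptor and leaves them through ferroportin, which the liver hormone hepcidin removes from the cell surface. The liver also makes heme for its cytochromes, at a rate set by the enzyme ALAS1.

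Of 92 libraries, 88 entered the values below: 15 FS and 5 CPF at B, 18 and 5 at FR2, 18 and 4 at FR8, and 18 and 5 at FR20. Their totals ran from 6877117 to 16613261 counts with a median of 12071957. The B libraries of FS animals 13, 14 and 16 (animals are numbered within a feeding group) had almost no reads on albumin and the FR8 library of CPF animal 1 held 4388 counts in all, and these 4 were left out. The FR2 and FR8 libraries of FS animal 8 were blank over whole runs of genes. Of 1341 identifiers with a median of at least 1000 counts, 161 had at most 3 counts in the FR2 library and 158 in the FR8 library, against 0 in every other library used. RefSeq's Sscrofa11.1 annotation placed 980 of the 1341, 64 of them on the chromosome of HPX, and all 64 were blank in both libraries, HPX included.

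The time labels were checked against the profile over 10901 other genes. Of the 88 libraries, 17 correlated best with the median profile of a time point other than their own. FS animals 13, 14 and 16 gave 9 of the 17: their libraries labelled FR2 were closest to FR8, those labelled FR8 to B, and those labelled FR20 to FR2. FS animals 6 and 7 gave 5 more, and the B library of FS animal 3, the FR20 library of FS animal 15 and the FR20 library of CPF animal 4 gave the other 3. In FS animal 6 the FR8 library was closest to FR20 and the FR20 library to FR8. In FS animal 7 the B library was closest to FR8, the FR2 library to FR20 and the FR8 library to FR2. No fit left out both FS animals 6 and 7. No label was changed, the cause was not tested, and values without FS animals 13, 14 and 16 are given below where a call on a member changed.

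Levels are CPM, counts scaled to a common library size by the TMM method, and a gene is said to have risen or fallen where edgeR's quasi-likelihood test gave a Benjamini-Hochberg adjusted p under 0.05 over all genes tested. Levels are compared between libraries for 1 gene at a time, since CPM is not corrected for gene length. The clearest change was in ALAS1, which fell at FR8 in FS and in CPF animals. BLVRA fell at FR2 in FS animals, and TFRC rose between FR8 and FR20 in FS animals. HPX was lower than Baseline at FR20 in all 15 FS animals with both libraries, and this passed the test once the 2 blank libraries were left out.

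**Figure D1:**
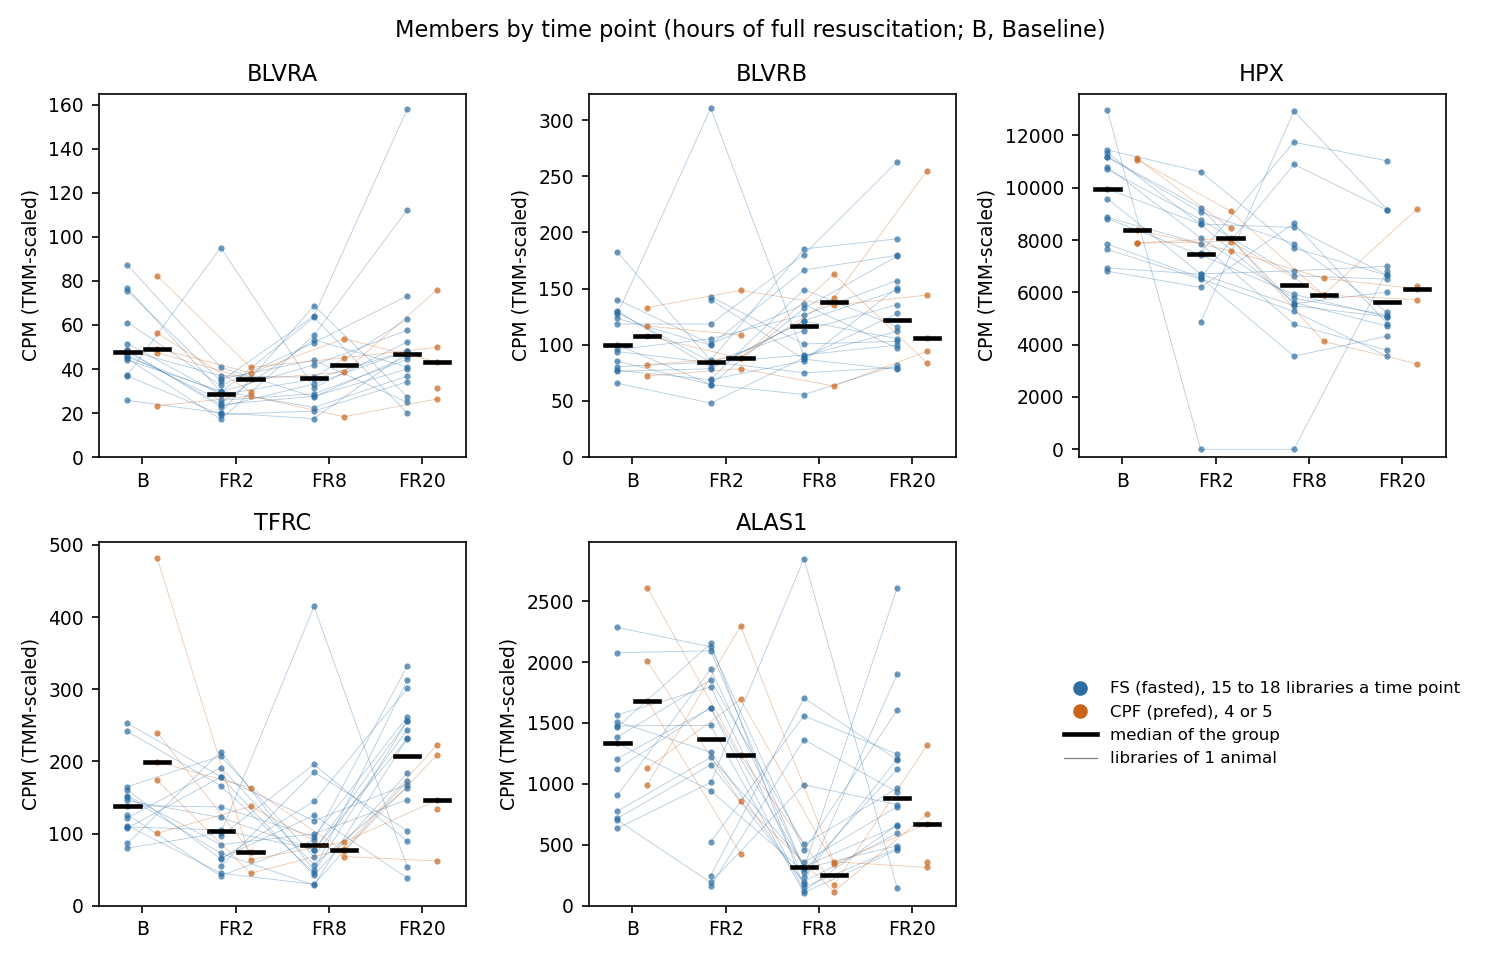
Level of 5 genes in each library (CPM, TMM-scaled, linear axis) at B, FR2, FR8 and FR20; blue points are FS animals, orange points CPF animals, thin lines join the libraries of 1 animal and black bars are group medians. ALAS1 has its lowest median at FR8 in FS (314 CPM) and CPF animals (256 CPM), and the 2 HPX points at 0 are the blank libraries of FS animal 8.

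At FR2vB (FR2 against B) in FS animals 1 of the 6 genes, BLVRA, passed the test, where 41.4% of the 13667 genes tested passed. At FR8vB 1 of 6, ALAS1, passed, against 39.3% of all genes. At FR20vB none of the 6 passed, against 33.8%. In CPF animals none of the 6 passed at FR2vB (3.41% of all genes), ALAS1 alone passed at FR8vB (13.3%) and none passed at FR20vB (0.893%). Between time points in FS animals, ALAS1 alone passed at FR8vFR2 (28.4%) and TFRC alone at FR20vFR8 (6.39%). In the FS comparisons with Baseline the share of members past the adjusted p was under that of all genes in this fit. The 6 include SLC40A1, which was close to undetected. They also include HPX, which passed at FR2vB, FR8vB and FR20vB once the blank libraries were left out. The lower share therefore depends on libraries and a gene with few or no counts. The comparisons with Baseline share their Baseline libraries.

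Hemopexin, the plasma carrier of free heme, is made by hepatocytes. In FS animals HPX lay between 6807 and 12953 CPM at B, with a median of 9952 (n = 15). At FR2 the 17 libraries other than the blank one lay between 4860 and 10609 CPM with a median of 7521, and at FR8 the 17 lay between 3559 and 12929 CPM with a median of 6636. At FR20 the 18 libraries lay between 3557 and 11024 CPM with a median of 5623. The ranges overlapped at every time point, while within animals the level was below Baseline in 14 of 14 FS animals at FR2, 13 of 14 at FR8 (animal 7 was the exception) and 15 of 15 at FR20. The median change within an animal at FR20 was a 1.81-fold decrease, with log2 changes between -1.27 and -0.45.

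In CPF animals HPX was at 11120, 8381, 7892, 7880.2 and 11070.1 CPM at B in animals 1 to 5. At FR2 the same animals had 8445, 7589, 8067, 7942 and 9103 CPM. At FR8 animals 2 to 5 had 6536, 4122, 5907 and 5891 CPM, all below the lowest CPF Baseline library. At FR20 animals 1 to 5 had 6225, 6140.2, 3269, 9191 and 5724 CPM, and animal 4, whose FR20 library was closest to the Baseline profile, was the 1 animal above its own Baseline.

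With all 88 libraries HPX did not pass at any time point. The log2 fold change in FS animals was -0.58 (SE 0.41, adjusted p = 0.255) at FR2vB, -0.73 (SE 0.42, adjusted p = 0.155) at FR8vB and -0.82 (SE 0.41, adjusted p = 0.11) at FR20vB. Without the 2 blank libraries, an alternative chosen after seeing the data, the SE was 0.11 to 0.12 and HPX fell by 0.39 (adjusted p = 0.00507), 0.53 (adjusted p = 0.000241) and 0.79 (adjusted p = 2.94e-07) on the log2 scale, in the order FR2, FR8 and FR20. The step from FR8 to FR20 was -0.26 (SE 0.11, adjusted p = 0.161) in the same fit, and that from FR2 to FR8 -0.15 (SE 0.11, adjusted p = 0.34), so neighboring time points after Baseline were not separated. In CPF animals the change at FR8vB was -0.70 with adjusted p = 0.595 in all 88 libraries and 0.025 without the blank ones, since all libraries share 1 estimate of the spread.

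The libraries labelled FR8 of FS animals 13, 14 and 16 held 11742, 12929 and 10895 CPM of HPX, above the other 14 FR8 libraries with reads on it. Without the blank libraries and without these 3 animals HPX fell by 0.26 at FR2vB (adjusted p = 0.0204), 0.61 at FR8vB (adjusted p = 6.56e-07) and 0.85 at FR20vB (adjusted p = 2.38e-10), and also by 0.34 from FR2 to FR8 (adjusted p = 0.00316). In the same fit HPX fell in CPF animals by 0.70 at FR8vB (adjusted p = 0.00317) and by 0.64 at FR20vB (adjusted p = 0.0135), the latter at adjusted p = 0.711 in all 88 libraries.

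Biliverdin reductase A, which turns biliverdin into bilirubin, was below its Baseline at FR2 in most animals. In FS animals BLVRA lay between 25.8 and 87.2 CPM at B with a median of 47.8, and between 17.1 and 95.1 CPM at FR2 with a median of 28.9. The FR2 range overlapped the Baseline range, and its highest value came from FS animal 7, with the next at 40.7 CPM. The FR2 library of FS animal 7 was closest to the FR20 profile. BLVRA was below Baseline in 14 of 15 FS animals at FR2, with a median 1.87-fold decrease. It fell at FR2vB by 0.73 on the log2 scale (SE 0.18, adjusted p = 0.000965). With the 3 Baseline libraries that lack albumin kept in, 91 libraries in all, the change was -0.47 (adjusted p = 0.0737) and missed the threshold.

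At FR8 BLVRA lay between 17.5 and 68.8 CPM in FS animals with a median of 35.8, and the change from Baseline was -0.38 (SE 0.18, adjusted p = 0.0982), below Baseline in 13 of 15 animals. At FR20 it lay between 20.1 and 158 CPM with a median of 46.7, and the change was 0.00 (SE 0.18, adjusted p = 0.987). The order of the medians was thus B, FR20, FR8 and FR2, and of the steps between time points after Baseline neither FR8vFR2 (0.36, SE 0.17, adjusted p = 0.117) nor FR20vFR8 (0.38, SE 0.17, adjusted p = 0.18) passed. Leaving out FS animal 6 or 14 took FR8vB past the threshold (lowest adjusted p = 0.0346), and leaving out FS animal 7 did so for FR8vFR2 (adjusted p = 0.011). Without FS animals 13, 14 and 16 BLVRA fell at FR8vB by 0.52 (adjusted p = 0.0113) and rose at FR20vFR8 by 0.63 (adjusted p = 0.00574).

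In CPF animals BLVRA was at 56.2, 47.4, 23.3, 49.3 and 82.2 CPM at B in animals 1 to 5, and at 29.8, 35.4, 27.7, 38.3 and 40.7 CPM at FR2. It was lower at FR2 in 4 of 5 animals, and the change of -0.51 (SE 0.33, adjusted p = 0.384) did not pass. The CPF changes at FR8vB (-0.45) and FR20vB (-0.17) did not pass either, with adjusted p = 0.422 and 0.836.

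Biliverdin reductase B is the isoform that acts on the biliverdin of fetal heme breakdown and on flavins. In FS animals BLVRB had a Baseline median of 100.1 CPM (range 65.8 to 183) and an FR2 median of 84.7 CPM (range 48.1 to 311). The FR8 median was 117 CPM (range 55.7 to 185) and the FR20 median 122 CPM (range 78.1 to 263). All 4 ranges overlapped, and the 311 CPM again came from FS animal 7. The level was below Baseline in 11 of 15 FS animals at FR2 and above it in 10 of 15 at FR20. None of the changes passed: FR2vB was -0.13 (SE 0.16, adjusted p = 0.535), FR8vB 0.10 (SE 0.16, adjusted p = 0.645) and FR20vB 0.30 (SE 0.16, adjusted p = 0.126).

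The FR20vB change of BLVRB was 0.37 (SE 0.15, adjusted p = 0.0495) without FS animals 13, 14 and 16 and 0.50 (adjusted p = 0.0267) with their Baseline libraries kept, and leaving out FS animal 7 gave 0.38 at FR8vFR2 with adjusted p = 0.0199. CPF medians were 108, 88.7, 138 and 106 CPM in the order of time, and the CPF changes lay between -0.00 and 0.37 with adjusted p of at least 0.531. Over the 86 libraries other than the 2 blank ones, log2 CPM of BLVRA and BLVRB correlated with Pearson's r = 0.71, the highest value of any pair among the 6 genes, across libraries that share animals, time points and depth.

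**Figure D2:**
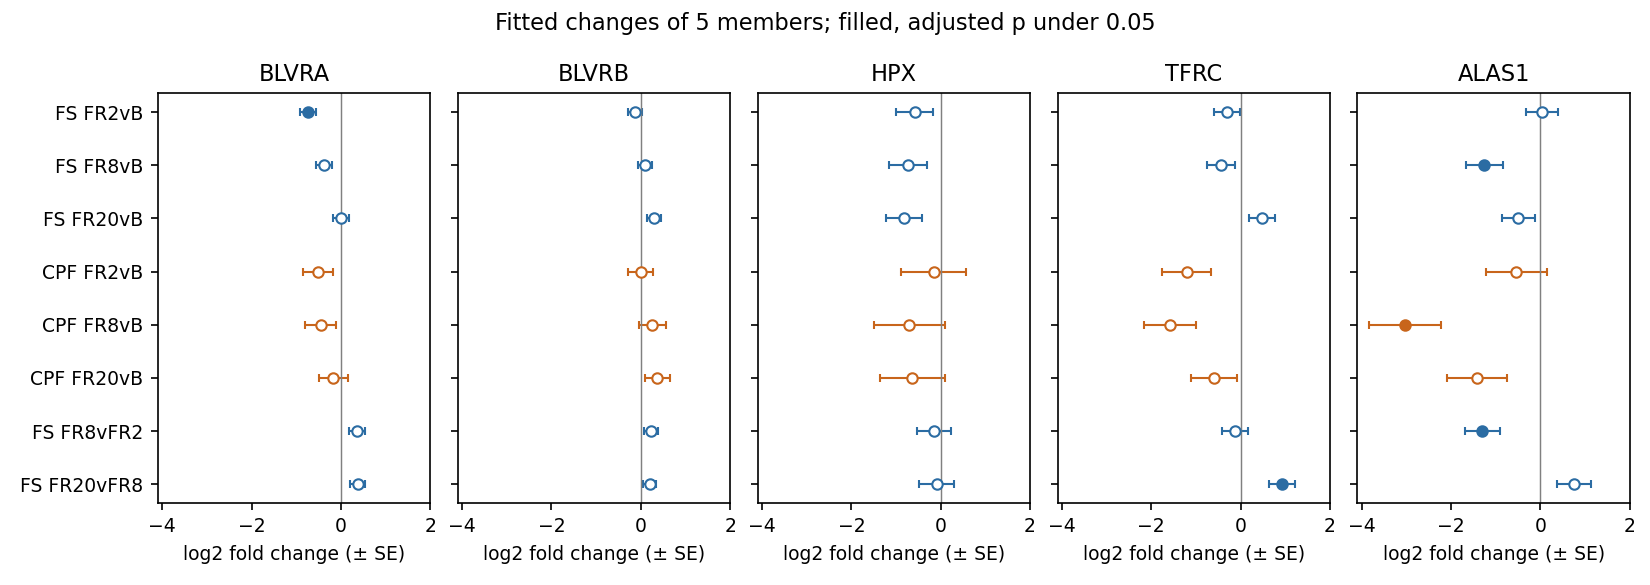
Fitted log2 fold changes of 5 genes (x axis, ± SE) in 8 comparisons (y axis; FR2vB is FR2 against B, and so on), for FS animals in blue and CPF animals in orange; filled points passed an adjusted p of 0.05. ALAS1 is filled at FR8vB in FS (-1.26) and CPF animals (-3.03) and at FR8vFR2 in FS animals (-1.30), BLVRA at FR2vB (-0.73) and TFRC at FR20vFR8 (0.93).

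The transferrin receptor TFRC, which takes up transferrin-bound iron, had its lowest FS median at FR8 and its highest at FR20. In FS animals it lay between 79.8 and 253 CPM at B with a median of 139, and between 41.2 and 214 CPM at FR2 with a median of 103. At FR8 it lay between 28.3 and 415 CPM with a median of 84.3, and at FR20 between 38.5 and 332 CPM with a median of 207. The ranges overlapped throughout, and the highest FR8 value was that of FS animal 6, with the next at 196 CPM. Of 15 FS animals with 4 libraries, 10 had their lowest level at FR8 and 10 their highest at FR20.

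TFRC rose from FR8 to FR20 by 0.93 on the log2 scale (SE 0.29, adjusted p = 0.042), in 14 of 18 FS animals, with a median within-animal rise of 2.93-fold. The 4 animals that went the other way were 6, 13, 14 and 16. The call was close to the threshold: it was lost on leaving out any of 13 FS animals (all but 6, 13, 14, 15 and 16), with values between 0.81 and 1.20 over all animals left out, and on leaving out the 2 blank libraries (0.82, adjusted p = 0.0866). Without FS animals 13, 14 and 16 the rise was 1.40 (SE 0.29, adjusted p = 0.000272), and with their Baseline libraries kept it was 0.84 (adjusted p = 0.11). The FS changes from Baseline were -0.31 (adjusted p = 0.409) at FR2, -0.44 (adjusted p = 0.263) at FR8 and 0.49 (adjusted p = 0.184) at FR20, the last of which passed without both the blank libraries and FS animals 13, 14 and 16 (0.65, adjusted p = 0.0462). At FR8vB TFRC was below Baseline in 13 of 15 FS animals, and it passed without FS animal 6 (adjusted p = 0.0413) or without animals 13, 14 and 16 (-0.76, adjusted p = 0.0256), but not without the blank libraries as well (-0.65, adjusted p = 0.0566).

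In CPF animals TFRC was at 240, 100.4, 199, 481 and 174 CPM at B in animals 1 to 5. At FR2 it was at 74.1, 138, 163, 63.7 and 44.7 CPM, and at FR8 at 68.1, 75.4, 88.2 and 78.9 CPM in animals 2 to 5. The FR8 values all lay below the CPF Baseline range. At FR20 the 5 animals had 134, 61.9, 209, 146 and 223 CPM. The FR8vB change was -1.58 (SE 0.58, adjusted p = 0.0577) and missed the threshold in all 88 libraries, while it passed with DESeq2 (adjusted p = 0.0251), with the likelihood ratio test (adjusted p = 0.0382) and without animal terms, that is, without the replicate block (-1.62, adjusted p = 0.0379). It also passed without the blank libraries (adjusted p = 0.0474), without FS animals 13, 14 and 16 (0.0295) and without both (0.0237). Leaving out FS animal 6, 7, 8 or 14 also took it past the threshold, and over all animals left out the adjusted p lay between 0.0363 and 0.246. The FR2vB change was -1.21 (SE 0.54, adjusted p = 0.189).

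Ferroportin, encoded by SLC40A1 and the iron exporter of macrophages and hepatocytes, was close to undetected by this identifier. It held 153 counts over the 88 libraries, with a median of 1 count and a highest value of 19 counts. In 31 libraries it was at 0, and in 78 it had at most 3 counts, the floor used here. The highest value, 0.854 CPM, was at FR20 in FS animal 7. No fold change is given for SLC40A1, since group medians are at or under the floor. With so few counts on this identifier a change in ferroportin was not detectable, and none of its tests passed. Why the counts are so few was not tested.

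ALAS1, the rate-limiting enzyme of heme synthesis in the liver, was lowest at FR8. In FS animals it lay between 635 and 2285 CPM at B with a median of 1335, and between 164 and 2153 CPM at FR2 with a median of 1371. At FR8 the median was 314 CPM, with a range of 107 to 2849 CPM. At FR20 the median was 880.1 CPM, with a range of 144 to 2612 CPM. The FR8 range reached over the whole Baseline range because of 5 libraries, those of FS animals 6 (2849 CPM), 16 (1705 CPM), 13 (1560 CPM), 14 (1364 CPM) and 7 (992 CPM). Every one of these is among the libraries closest to the profile of another time point, and the other 13 lay below the lowest Baseline library.

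ALAS1 fell at FR8vB in FS animals by 1.26 on the log2 scale (SE 0.41, adjusted p = 0.0125), in 13 of 15 animals, with a median within-animal decrease of 4.77-fold. It fell at FR8vFR2 by 1.30 (SE 0.40, adjusted p = 0.011), in 13 of 18 animals. Without FS animals 13, 14 and 16 these changes were -1.70 (adjusted p = 0.000118) and -1.97 (adjusted p = 1.92e-05). Neither was lost on leaving out any single animal, while both were lost with the 3 Baseline libraries that lack albumin kept in (-0.73, adjusted p = 0.254, and -1.04, adjusted p = 0.111). FR20vFR8 was 0.75 (SE 0.38, adjusted p = 0.232) and passed without FS animal 6 (adjusted p = 0.0325) or without animals 13, 14 and 16 (1.23, adjusted p = 0.00969). FR2vB (0.04, SE 0.36, adjusted p = 0.934) and FR20vB (-0.50, SE 0.37, adjusted p = 0.297) did not pass. The order of FS medians was FR2, B, FR20 and FR8, and no neighboring pair in this order was separated with all libraries used.

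In CPF animals ALAS1 was at 1685, 1129, 993, 2612 and 2005 CPM at B in animals 1 to 5. At FR2 the values were 428, 1693, 2298, 1235 and 856 CPM. At FR8 animals 2 to 5 had 344, 360.2, 167 and 115 CPM, all below the lowest CPF library at B and at FR2. At FR20 the values were 357, 672, 314, 1317 and 752 CPM. ALAS1 fell at FR8vB by 3.03 (SE 0.80, adjusted p = 0.0101) in 4 of 4 animals, with a median decrease of 7.15-fold. This rests on 4 animals. It missed the threshold in 91 libraries (adjusted p = 0.0524), and without CPF animal 4 or 5 the call was lost (highest adjusted p = 0.0811, values between -3.54 and -2.68 over all animals left out). The CPF changes at FR2vB (-0.54) and FR20vB (-1.43) had adjusted p = 0.694 and 0.27.

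**Figure D3:**
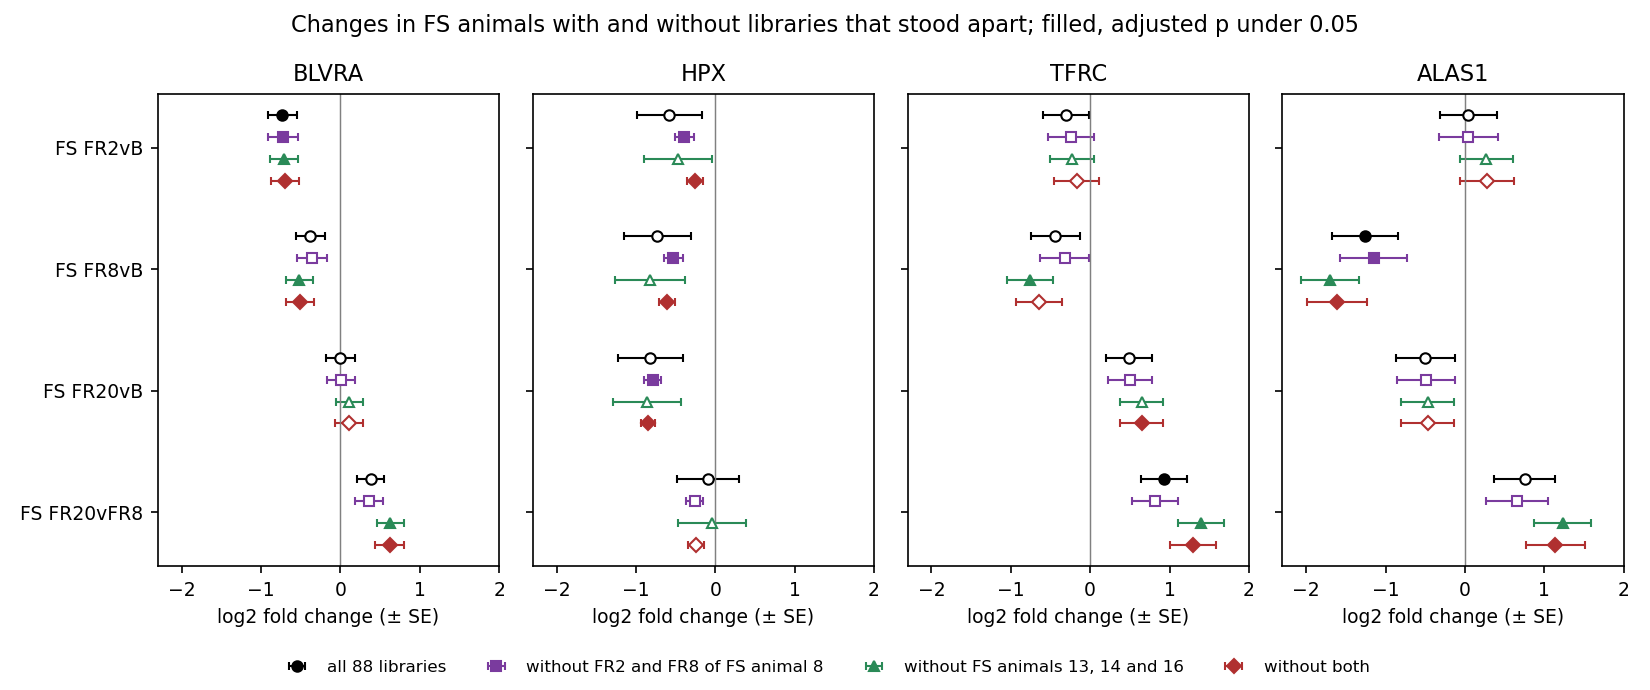
Log2 fold changes (x axis, ± SE) of 4 genes in FS animals in 4 comparisons (y axis), with all 88 libraries (black), without the blank FR2 and FR8 libraries of animal 8 (purple), without animals 13, 14 and 16 (green) and without both sets (red); filled symbols passed an adjusted p of 0.05. The error of HPX shrinks without the blank libraries, from 0.41 to 0.11 at FR20vB, and ALAS1 at FR8vB is filled in all 4 fits.

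Whether prefeeding changed these responses was asked with the interaction, the CPF change minus the FS change. None of the 18 tests of the 6 genes passed, and the interaction called 0 of 13667 genes (0%) with edgeR's quasi-likelihood test at FR2vB, FR8vB and FR20vB, where 397, 468 and 521 genes had an unadjusted p under 0.05. DESeq2 called 0, 0 and 2 genes and edgeR's likelihood ratio test 1, 0 and 0. The largest difference among the members was that of ALAS1 at FR8vB, -1.77 with a 95% interval of -3.47 to -0.07 and adjusted p = 0.999. The interval is not adjusted for the number of genes tested. Its FS side includes the FR8 libraries of FS animals 13, 14 and 16, which were closest to B. Without these animals the FS fall of ALAS1 was larger, as given above, while the interaction without them is not given here. With each animal left out in turn, the ALAS1 interaction at FR8vB lay between -2.27 and -1.41. The cause of the difference was not tested. TFRC differed by -1.14 (95% interval -2.41 to 0.13) at FR8vB. For BLVRA and BLVRB the FR8vB intervals were -0.85 to 0.71 and -0.50 to 0.82. Differences inside those bounds were not excluded, with 4 CPF libraries used at FR8.

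Set against each other at a single time point, CPF and FS animals had no difference that passed in the 5 members tested there (SLC40A1 was under the filter). At B 0.0342% of 11688 genes passed the adjusted p. TFRC had the smallest unadjusted p of the 5, with a median of 199 CPM in CPF and 139 CPM in FS animals at B, overlapping ranges, and a difference of 0.75 (SE 0.26, adjusted p = 0.465). Its 95% interval, not adjusted for the number of genes tested, was 0.23 to 1.27, so a difference was not excluded. At FR2, FR8 and FR20 edgeR's quasi-likelihood test called 0 genes (0%), with 664, 618 and 400 genes at an unadjusted p under 0.05; DESeq2 called 0, 7 and 2 and the likelihood ratio test 2, 0 and 0. ALAS1 at FR8 was at a median of 256 CPM in CPF and 314 CPM in FS animals, a fitted difference of -1.44 (SE 0.80, 95% interval -3.01 to 0.12, adjusted p = 0.955). The FS group here holds the FR8 libraries of animals 6, 7, 13, 14 and 16, each closest to the profile of another time point. They had the highest FS levels of ALAS1 at FR8. The difference of -1.44 did not pass, and its cause was not tested.

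Animals that died were compared with those that lived at each time point, with a term for the feeding group. No gene was called at any time point (0%) with edgeR's quasi-likelihood test, at 998, 656, 265 and 642 genes with an unadjusted p under 0.05 at B, FR2, FR8 and FR20; DESeq2 called 10, 3, 0 and 0 and the likelihood ratio test 11, 8, 0 and 0. In FS animals the highest FR20 values of BLVRA (158 CPM), BLVRB (263 CPM), TFRC (332 CPM) and ALAS1 (2612 CPM) all came from animal 2, which died. The difference at FR20 was 0.64 (SE 0.32, adjusted p = 0.904) for BLVRA and 0.07 (SE 0.42, adjusted p = 0.998) for ALAS1, and the other 2 animals that died lay inside the range of those that lived for BLVRA.

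The other genes of these pathways were taken from 8 lists of 90 genes, of which 64 had an identifier and 56 were tested. In FS animals 17 rose and 14 fell at FR2vB, 14 rose and 13 fell at FR8vB, and 11 rose and 12 fell at FR20vB. Of all genes tested, 20.3%, 19.9% and 17.4% rose in these comparisons and 21.1%, 19.5% and 16.4% fell, which is the background for the counts of each list. The median log2 fold changes of the 56 were -0.00, 0.07 and -0.01, against -0.0425, -0.0016 and 0.0419 over all genes tested. In CPF animals 5 rose and 3 fell at FR2vB, 9 rose and 5 fell at FR8vB, and 2 rose and 1 fell at FR20vB, where 3.41%, 13.3% and 0.893% of all genes passed in either direction. With the 3 Baseline libraries that lack albumin kept in, NR1I3 at FR2vB, HEPH and ACVR1 at FR8vB, and STAT3 and FLVCR2 at FR20vB did not pass (adjusted p = 0.0817, 0.0537, 0.106, 0.17 and 0.936). ABCC2 at FR2vB, FBXL5 at FR8vB and MAFF at FR20vB passed there (adjusted p = 0.0439, 0.0491 and 0.00565). The genes named from each list are those reported here with the highest or the lowest change of the list in FS animals at each time point.

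**Figure D4:**
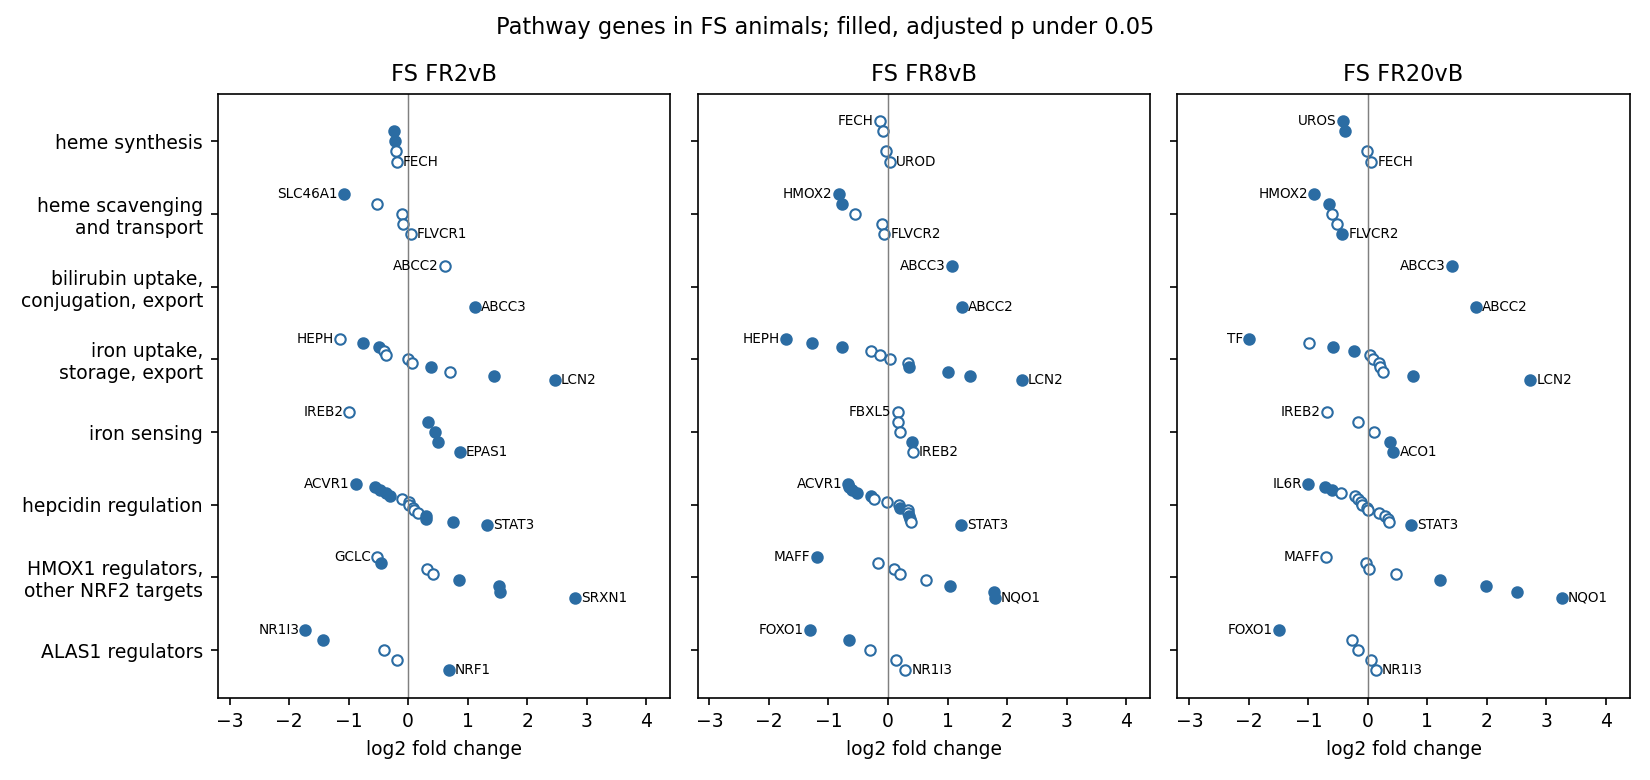
Log2 fold change (x axis) of each tested gene of 8 pathway lists (y axis) in FS animals at FR2vB, FR8vB and FR20vB; each point is a gene (1 gene is not shown), filled where the adjusted p was under 0.05, and the highest and lowest of each list are named where reported. Both bilirubin exporters lie to the right of 0 at all 3 time points, and NQO1 at FR20vB (3.26) is the farthest to the right.

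Of 5 tested enzymes of heme synthesis past ALAS1, 3 fell at FR2vB, 0 passed at FR8vB and 2 fell at FR20vB, with list medians of -0.22, -0.07 and -0.18. FECH, which inserts iron into the ring, had changes of -0.19, -0.14 and 0.06 with adjusted p = 0.277, 0.444 and 0.786. UROS fell at FR20vB by 0.42 (SE 0.09, adjusted p = 0.000136). At FR8vB, where ALAS1 fell by 1.26, the 5 enzymes lay between -0.14 (FECH) and 0.03 (UROD).

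Of the genes that regulate ALAS1, 5 of 7 were tested. FOXO1, a transcription factor that drives fasting genes including ALAS1, fell at FR8vB by 1.31 (SE 0.22, adjusted p = 3.9e-06) and at FR20vB by 1.49 (SE 0.21, adjusted p = 1.51e-07). NR1I3, the xenobiotic receptor CAR, fell at FR2vB by 1.73 (SE 0.44, adjusted p = 0.00107), against -1.19 with the Baseline libraries that lack albumin kept in, and stood at 0.29 (adjusted p = 0.573) at FR8vB and 0.13 (adjusted p = 0.822) at FR20vB. NRF1, nuclear respiratory factor 1, rose at FR2vB by 0.69 (SE 0.15, adjusted p = 0.000272). Counting FR2vB, FR8vB and FR20vB in turn, 2, 2 and 1 of the 5 fell and 1, 0 and 0 rose.

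In the list of heme scavenging and transport 1, 2 and 3 of 5 tested genes fell and 0 rose. SLC46A1, a folate carrier that also moves heme, fell at FR2vB by 1.08 (SE 0.22, adjusted p = 7.63e-05). HMOX2, the constitutive heme oxygenase, fell at FR8vB by 0.83 (SE 0.20, adjusted p = 0.00053) and at FR20vB by 0.90 (SE 0.19, adjusted p = 0.000187). FLVCR1, a heme exporter blank in the same 2 libraries, stood at 0.05 (adjusted p = 0.911) at FR2vB. FLVCR2 stood at -0.06 (adjusted p = 0.739) at FR8vB and fell by 0.43 (adjusted p = 0.0129) at FR20vB, where it was at -0.04 with the Baseline libraries that lack albumin kept in. Without the blank libraries 2, 3 and 5 of the 5 fell.

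Of the bilirubin list only the exporters ABCC2 and ABCC3 of 6 genes had an identifier. ABCC3, which returns conjugated bilirubin to the blood, rose by 1.13 (SE 0.20, adjusted p = 7.01e-06) at FR2vB, 1.07 (SE 0.19, adjusted p = 1.4e-05) at FR8vB and 1.41 (SE 0.20, adjusted p = 9.1e-08) at FR20vB. ABCC2, which moves it into bile, was at 0.62 (SE 0.29, adjusted p = 0.0826) at FR2vB, which passed without the blank libraries (0.72, adjusted p = 0.0402), and rose by 1.24 (adjusted p = 0.000299) at FR8vB and 1.82 (adjusted p = 1.22e-06) at FR20vB. BLVRA, which makes bilirubin, fell at FR2vB in the same animals.

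Among 11 tested genes of iron uptake, storage and export, 3 rose and 2 fell at FR2vB, 4 rose and 3 fell at FR8vB, and 2 rose and 3 fell at FR20vB. These counts include the blank libraries of FS animal 8, in both of which SLC39A8 and STEAP4 of this list had 0 counts. LCN2, a siderophore-binding protein of the acute phase, rose by 2.47 (SE 0.46, adjusted p = 1.84e-05), 2.25 (adjusted p = 8.43e-05) and 2.73 (adjusted p = 8.75e-06) in that order. TF, transferrin itself and the ligand of TFRC, fell by 2.00 (SE 0.23, adjusted p = 1.54e-09) at FR20vB. HEPH, a ferroxidase, stood at -1.15 (adjusted p = 0.098) at FR2vB and fell by 1.72 (SE 0.59, adjusted p = 0.0157) at FR8vB, a call lost without FS animal 6 or 8 (highest adjusted p = 0.0602).

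Of 5 iron sensing genes 4 rose at FR2vB, 1 at FR8vB and 2 at FR20vB, and none fell, where 20.3%, 19.9% and 17.4% of all genes rose. EPAS1, encoding HIF-2α, rose at FR2vB by 0.87 (SE 0.15, adjusted p = 3.69e-06), and ACO1, encoding iron regulatory protein 1, rose at FR20vB by 0.43 (SE 0.11, adjusted p = 0.00168). IREB2, encoding iron regulatory protein 2, had changes of -0.99 (adjusted p = 0.217), 0.42 (adjusted p = 0.58) and -0.69 (adjusted p = 0.421) with SE of 0.55 to 0.64. FBXL5, which targets that protein for degradation, was lowest of the list at FR8vB with 0.16 (adjusted p = 0.291).

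Of 15 tested genes that set hepcidin, 4 rose and 5 fell at FR2vB. At FR8vB 4 rose and 5 fell, and at FR20vB 1 rose and 3 fell. Of all genes tested 20.3%, 19.9% and 17.4% rose and 21.1%, 19.5% and 16.4% fell, in the same order. With 15 genes no conclusion is drawn from these counts. STAT3, which carries the interleukin 6 signal to the hepcidin gene, rose by 1.33 (SE 0.23, adjusted p = 4.8e-06), 1.23 (SE 0.22, adjusted p = 1.4e-05) and 0.73 (SE 0.22, adjusted p = 0.00881). ACVR1, a type I receptor of bone morphogenetic proteins, fell by 0.88 (adjusted p = 0.00133) at FR2vB and 0.67 (adjusted p = 0.0161) at FR8vB, the latter lost without FS animal 18 (adjusted p = 0.0528). IL6R, the interleukin 6 receptor, fell by 1.01 (SE 0.22, adjusted p = 0.000205) at FR20vB. Without animal terms STAT3 did not pass at FR20vB (0.48, adjusted p = 0.185).

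Of the regulators of HMOX1 and other targets of NRF2, the oxidative stress factor, 8 were tested, and 4 rose and 1 fell at FR2vB, 3 rose and 1 fell at FR8vB, and 4 rose at FR20vB. SRXN1, a sulfiredoxin, rose by 2.81 (SE 0.31, adjusted p = 1.15e-09) at FR2vB. NQO1, a quinone reductase, rose by 1.79 (SE 0.40, adjusted p = 0.000305) at FR8vB and 3.26 (SE 0.43, adjusted p = 3.24e-08) at FR20vB. GCLC, a subunit of the glutathione synthesis enzyme, stood at -0.52 (adjusted p = 0.37) at FR2vB and fell by 1.06 (adjusted p = 0.0163) there without FS animals 13, 14 and 16. MAFF, a small Maf protein, fell by 1.20 (SE 0.34, adjusted p = 0.00399) at FR8vB and did not pass without animal terms (-0.82, adjusted p = 0.13). At FR20vB MAFF stood at -0.71 (adjusted p = 0.11), and it passed without FS animal 6 (adjusted p = 0.0428) or without animals 13, 14 and 16 (-0.94, adjusted p = 0.0239).

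Some cell type markers changed over the same time points. In bulk tissue, fewer cells of a type and less RNA per cell cannot be told apart. The sums and counts below leave out the 2 blank libraries. In FS animals with all 88 libraries, 20.3%, 19.9% and 17.4% of all genes rose at FR2vB, FR8vB and FR20vB. In the same order 21.1%, 19.5% and 16.4% fell. With so few markers in a list, a count of 1 lies near these shares. The 7 hepatocyte markers with an identifier, led by ALB and TF, summed in the FS Baseline libraries to between 81860.0 and 219859 CPM with a median of 189073. The FR2 libraries had a median of 134566 CPM (51146 to 159982), the FR8 libraries one of 79091 (53843 to 187220.0) and the FR20 libraries one of 49376 (23176 to 151139). The ranges overlapped. Of the 7, 4, 5 and 5 fell at FR2vB, FR8vB and FR20vB and 1, 1 and 0 rose. In CPF animals the medians were 173473, 138329.9, 81747 and 46675 CPM, in the same order.

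The 7 Kupffer cell and macrophage markers, led by CD14 and C1QA, summed to medians of 1591, 1178, 1126 and 1076 CPM in FS animals, and 4 of the 7 fell at each of the 3 comparisons with Baseline, while 1, 1 and 2 rose. The 6 erythroid markers, led by HBB and ALAS2, had medians of 256, 295.5, 122.9 and 109.7 CPM, with ranges of 98.3 to 1113 at B and 27.5 to 2304 at FR8, and of 3 tested 1, 2 and 2 fell. The 7 neutrophil markers, led by S100A9 and S100A12, had medians of 1.35, 15.9, 8.64 and 5.92 CPM, of 5 tested 4, 3 and 4 rose, and 1 of the 7 was at 0 in every FS group. The 3 endothelial markers, led by PECAM1 and KDR, had medians between 167 and 202 CPM, with 1 of 3 rising at each comparison. The 6 striated muscle markers, led by ACTA1 and TNNC2, had medians of at most 0.335 CPM, and none of 5 passed. Their part in the changes of the members was not tested.

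Over the 88 libraries the genes with a symbol that were most like each member in log2 CPM were found by Pearson's r, given as a description over libraries that share animals and time points. For HPX they were PGRMC1, SERPINC1 and APOC3 at r = 0.99, and without the 2 blank libraries these values were 0.81, 0.90 and 0.83. PGRMC1 had 0 counts in both blank libraries, where HPX was blank too. Genes were not ranked again without these libraries, so other genes may be closer to HPX there. BLVRA was most like TKT (0.78), LACTB2 (0.74) and PRDX3 (0.74), and BLVRB most like TKT (0.82), CCS (0.75) and BLVRA (0.70). TFRC was most like LIPA (0.72) and ACAD11 (0.69). ALAS1 was most like AACS (0.79), CYB5A (0.78) and BDH1 (0.77). For SLC40A1, whose counts are near 0, the highest values were 0.50 (GDPD1), 0.46 (RND2) and 0.45 (TPD52).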

How the data were processed

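The authors sequenced single reads of polyA libraries from 92 liver biopsies, aligned them to Sscrofa10.2 with TopHat 1.5.0, sorted them with SAMtools and counted them per pig Ensembl gene with HTSeq (versions per the submitters' processing notes, with CASAVA 1.8.2). The deposited values are whole-number counts without normalization; 0 columns lacked a sample. How HTSeq treated strand and overlaps is not given in the sources used here, so reads of overlapping or near-identical genes are uncertain.

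Symbols came from a gene name table (11804 identifiers) and the study's tables (700). Genes whose CPM summed to 10 or more were tested in edgeR 4.0.16 (R 4.3.3; TMM, quasi-likelihood F test, 2-sided). Changes were fitted on 88 libraries, with animal terms and a time course per feeding group. CPF against FS, and died against lived, were fitted at each time point. SE is the log2 fold change over the root of F. The animal codes in the titles pair the libraries: residuals of libraries from 1 animal correlated at a median r of 0.21 (94 of 126 pairs exceeded 0.1), those of different animals at -0.016 (414 of 1791). Scripts were tested on simulated data with 200 changed genes.

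The members and lists were chosen with earlier results of these data known. Named genes are the members, the highest and lowest tested gene of each pathway list at FR2vB, FR8vB and FR20vB in FS animals, the 2 markers with most counts of each cell type list, and the 3 genes with a mean of at least 1 CPM most like each member (prior count 2); some of the genes this rule names are not reported here. Alternatives were RLE size factors, at least 1 count, filterByExpr, DESeq2 1.42.0, the likelihood ratio test, the adjusted p alone, 91 and 92 libraries, no animal terms and each animal left out; fits without libraries that stood apart were added after seeing the data. Sequences are not shown, since no genome of this build was used here.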

Additional observations from a re-analysis of the deposited data

How the results depend on the processing

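Of the results for members, the listed alternatives other than leaving out animals left 783 values on their side of the threshold. They took 9 below it and 5 past it. Most of the 783 belong to tests that did not pass in the main fit, and these could not fall below the threshold. The tests that passed there were BLVRA at FS FR2vB, ALAS1 at FS FR8vB, FS FR8vFR2 and CPF FR8vB, and TFRC at FS FR20vFR8. Each of them was lost in 91 libraries. No direction turned where the main fit or the alternative passed, and other changes of sign were not counted. All 9 came from keeping the Baseline libraries that lack albumin, in 91 or 92 libraries, and so did 2 of the 5 (BLVRB at FS FR20vB); the other 3 were TFRC at CPF FR8vB with DESeq2, the likelihood ratio test and no animal terms. The cause was not tested.

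Counts of genes past both thresholds were 1505, 1617 and 1358 in FS animals at FR2vB, FR8vB and FR20vB, 329, 1207 and 96 in CPF animals, 814 at FR8vFR2, 200 at FR20vFR8, 3 for CPF over FS at B and 0 elsewhere. With the adjusted p alone, which drops the fold minimum, they were 5653, 5374 and 4617 in FS animals, 1819 at CPF FR8vB, 3875 at FR8vFR2 and 874 at FR20vFR8. DESeq2 gave 545 at CPF FR2vB, 302 at CPF FR20vB, 2 for the FR20vB interaction, 31, 7 and 2 for CPF over FS at B, FR8 and FR20, and 10 and 3 for died over lived at B and FR2. The likelihood ratio test gave 512 and 243 at CPF FR2vB and FR20vB, 1 for the FR2vB interaction, 25 and 2 for CPF over FS at B and FR2, and 11 and 8 for died over lived at B and FR2. With every gene of at least 1 count, CPF over FS at B gave 5, and died over lived 2 at B and 1 at FR20. In 91 libraries CPF gave 99, 409 and 0, FR20vFR8 126, and CPF over FS and died over lived at B 1 each; in 92 libraries these were 94, 484, 0, 124, 1 and 1. Without FS animals 13, 14 and 16, CPF FR2vB gave 576, CPF FR20vB 383, FR8vFR2 1663, FR20vFR8 677, and the FR2vB interaction and CPF over FS at FR20 1 each; without the blank libraries too, these were 670, 455, 1615, 626, 1 and 1.

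Fits with no replicate block, which drop the pairing of libraries by animal, gave 216 at CPF FR2vB and 0 at CPF FR20vB.

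Leaving out each of the 23 animals in turn gave 1407 to 1907, 1421 to 2031 and 1236 to 1593 in FS animals, 19 to 431, 316 to 1370 and 0 to 356 in CPF animals, 641 to 1155 at FR8vFR2, 130 to 318 at FR20vFR8, 3 to 18 and 0 to 2 for CPF over FS at B and FR2, and 0 to 3 for died over lived at B. With 5 CPF animals, the CPF counts depend on single animals, and SLC40A1 has too few counts for a fold.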
